A study of Mus musculus with 15 samples.

Results

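Lisinopril, an inhibitor of angiotensin-converting enzyme, was compared with mock treatment in the tibialis anterior of mice that carried no tumour. The comparison used 7 of the 15 libraries of the series, chosen by their treatment labels: 3 from mock-injected mice given lisinopril and 4 from mock-injected mice given a mock treatment, called control here. All were female C57BL/6J mice, with an age label of 7 weeks, and muscle was taken 49 days after the mock injection according to the design text. A protocol label instead names a time of 3 weeks and injected LLC cells, so the sources conflict on time and tumour model. The other 8 libraries, from mice with a cachexia-inducing melanoma with or without the drug, entered a test of whether the drug effect differed by tumour status. They also entered the comparison of melanoma plus lisinopril with melanoma, and an alternative fit of all 15 libraries. The labels give neither dose nor route of lisinopril, nor whether replicates came from separate cages or days, so p-values measure the spread between these libraries. Values were TPM, transcript abundances scaled to a fixed sum per library. Of 47643 gene symbols listed, 11208 were tested, those with 1 TPM or more in 3 or more of the 7 libraries.

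In the renin-angiotensin system, renin cleaves angiotensinogen to angiotensin I, and angiotensin-converting enzyme (gene Ace), an enzyme on the surface of endothelial cells that also degrades bradykinin, cleaves angiotensin I to angiotensin II. Angiotensin II acts mainly through the type 1 receptor to constrict vessels and raise aldosterone, and in muscle it is known to promote wasting, insulin resistance and fibrosis when in excess. Lisinopril blocks the enzyme's active site, so its direct effect is on peptides, which RNA sequencing does not measure.

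The libraries carried the markers of a fast limb muscle: the 14 fixed markers of this tissue summed to between 121939 and 151199 TPM in lisinopril muscles and between 96552 and 139458 TPM in control muscles. Melanocyte genes were at or near 0, with Tyr and Tyrp1 listed at 0 in all 7 libraries. Control 2 stood apart, with a mean correlation of 0.937 to its own group against 0.965 to 0.983 for the other 6. It held 23878 TPM of haemoglobin, against 1582 to 4197 TPM in lisinopril muscles and 424 to 1637 TPM in the other controls, so the main results are given with and without it. Control 3 had the highest share of transcripts from the mitochondrial genome, 52.8%, against 42.5 to 46.3% in lisinopril muscles and 40.8 to 41.9% in the other controls. The group means of this share were 44.9 ± 2.05% in lisinopril muscles (SD, n = 3) and 44.3 ± 5.68% in control muscles (SD, n = 4), a difference of 0.64 percentage points (two-sided exact permutation test, p = 0.914, where 3 against 4 allow no p below 0.0571).

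No gene passed the threshold for lisinopril against control. With limma on log2(TPM + 1) and Benjamini-Hochberg adjustment over the 11208 genes, 0 had an adjusted p below 0.05 (a background of 0%), the smallest being 0.685. At an unadjusted p below 0.05 there were 267 genes (2.38%), of which 23 were higher with lisinopril (0.205%) and 244 lower (2.18%). The lisinopril values lay wholly below the control values for 442 genes (3.94%) and wholly above them for 26 (0.232%). The median SE of a log2 fold change was 0.19 and the median half-width of its 95% interval was 0.44, so a typical gene would have to differ by more than that for its own interval to leave 0. Without control 2, 0 of 11003 genes were called (smallest adjusted p 0.953), with 243 (2.21%) at an unadjusted p below 0.05, 30 higher (0.273%) and 213 lower (1.94%). Without control 2, 598 genes (5.43%) lay wholly below the controls and 53 (0.482%) above.

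Most genes had lower TPM with lisinopril, and this depended on how the libraries were scaled. The log2 fold change was negative for 84.6% of the genes and positive for 15.4%, with a median of -0.18 (-0.11 without control 2, where 79.3% were negative and 20.7% positive). After median-ratio rescaling, which sets the typical gene equal between libraries, the median was -0.013 and 52.8% were negative. The non-overlapping genes then split into 249 lower (2.22%) and 262 higher (2.34%). Leaving out control 3 had the opposite effect: 3784 of 11180 genes (33.8%) then lay wholly below the remaining controls and 55 (0.492%) above, with a median of -0.27. With the mitochondrial genome taken out before scaling, the median was -0.19, 83.5% were negative, and 1214 of 12252 genes (9.91%) lay wholly below the controls. A group of genes is therefore described below by its median relative to that of all tested genes, beside its count.

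No gene of the renin-angiotensin system passed the test. Of 22 listed genes, 17 were tested and 0 passed. All 17 fold changes were negative, beside 84.6% of all genes, but 14 were after median-ratio rescaling, and the list's median relative to all genes was -0.13 (-0.10 without control 2). A single member, Lnpep, had an unadjusted p below 0.05 and non-overlapping groups (5.88% of the list, beside 2.18% and 3.94% of all genes). Without control 3, 8 of the 17 had an unadjusted p below 0.05 and 8 were separated (47.1%, beside 17.8% and 33.8% of all genes), and without lisinopril 2 both counts were 4 (23.5%, beside 3.47% and 13.1%). Without control 1 the relative median was -0.029. Renin (Ren1), the second type 1 receptor gene Agtr1b and the angiotensin-(1-7) receptor Mas1 stayed below the filter, at no more than 0.141 TPM in any of the 7 libraries.

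Ace itself (chromosome 11, 105967945 to 105989964 on GRCm38), the target of the drug, had 6.49, 8.96 and 8.26 TPM in lisinopril muscles, against 17.9, 31.1, 5.31 and 11.0 TPM in control muscles. The lisinopril values were close together, between 6.49 and 8.96 TPM, and control 3 lay below all of them while control 1 and control 2 lay well above. Its log2 fold change was -0.73 ± 0.47 (95% interval -1.81 to 0.35, Benjamini-Hochberg adjusted p = 0.685), and -0.35 ± 0.35 without control 2. Leaving out 1 library at a time gave -1.13 (without control 3) to -0.35 (without control 2). Agt, which encodes angiotensinogen (chromosome 8, 124556534 to 124569706), had 7.11, 11.5 and 5.99 TPM in lisinopril muscles, against 15.2, 6.85, 6.90 and 13.9 TPM in control muscles, and the groups overlapped (log2 fold change -0.31 ± 0.33).

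The receptors were at low levels. Agtr1a, the type 1 receptor gene, had 1.30, 1.26 and 1.81 TPM in lisinopril muscles, against 2.39, 2.18, 1.24 and 1.38 TPM in control muscles (log2 fold change -0.17 ± 0.20), with each lisinopril value inside the control range. For Agtr2, the type 2 receptor, which opposes many type 1 effects, the values were 0.0336, 1.38 and 0.0121 TPM in lisinopril muscles, against 2.52, 1.62, 0.558 and 1.15 TPM in control muscles. It was near 0 in lisinopril 1 and lisinopril 3 while lisinopril 2 lay among the controls (log2 fold change -0.80 ± 0.37, 95% interval -1.65 to 0.05). Agtrap binds the type 1 receptor and favours its internalisation, and Atp6ap2 is the (pro)renin receptor, also a part of the vesicular proton pump. Agtrap had 5.08, 4.18 and 5.47 TPM in lisinopril muscles, against 9.24, 9.57, 5.19 and 6.12 TPM in control muscles (log2 fold change -0.50 ± 0.23), and Atp6ap2 had 12.3, 16.4 and 11.8 TPM in lisinopril muscles, against 23.7, 19.4, 14.6 and 15.1 TPM in control muscles (log2 fold change -0.40 ± 0.20). Both overlapped between groups, through control 3 for Agtrap and through lisinopril 2 for Atp6ap2.

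Among the peptidases that process angiotensins, Lnpep differed most. It encodes insulin-regulated aminopeptidase, a binding site of angiotensin IV that travels with the glucose transporter Slc2a4 in muscle vesicles (chromosome 17, 17521410 to 17625050). Its values were 0.770, 9.01 and 7.95 TPM in lisinopril muscles, against 12.8, 18.4, 10.4 and 11.2 TPM in control muscles, so every lisinopril muscle was below every control. Lisinopril 1 was the lowest by far. The log2 fold change was -1.36 ± 0.56 (95% interval -2.63 to -0.09, Benjamini-Hochberg adjusted p = 0.685), and over fits leaving out 1 library it ranged over -1.80 (without lisinopril 2) to -0.55 (without lisinopril 1). Without control 2 it was -1.20 ± 0.57 (95% interval -2.51 to 0.11), and after median-ratio rescaling -1.21 ± 0.55. Slc2a4 itself had 299, 362 and 327 TPM in lisinopril muscles, against 326, 242, 319 and 360.1 TPM in control muscles and its groups overlapped (log2 fold change 0.09 ± 0.15). Anpep, aminopeptidase N, which trims angiotensin III, had 1.89, 4.07 and 2.46 TPM in lisinopril muscles, against 7.74, 8.04, 2.50 and 4.59 TPM in control muscles (log2 fold change -0.76 ± 0.36). Enpep, aminopeptidase A, which makes angiotensin III, had 1.35, 1.62 and 1.80 TPM in lisinopril muscles, against 2.40, 2.81, 1.62 and 1.49 TPM in control muscles (log2 fold change -0.23 ± 0.20, chosen for its role after its values were seen). Of 12 genes of the kallikrein-kinin system, whose peptide bradykinin is also a substrate of the enzyme, 4 were tested and 0 passed; the bradykinin receptors Bdkrb1 and Bdkrb2 were below the filter. Genes downstream of angiotensin and aldosterone were near the median of all genes (13 tested of 20, 0 passed, relative median 0.056, and -0.012 without control 2). The mineralocorticoid receptor Nr3c2 had a log2 fold change of -0.13 ± 0.18, the aldosterone-induced kinase Sgk1 -0.04 ± 0.18 and endothelial nitric oxide synthase Nos3 -0.13 ± 0.23, and all 3 turned positive after median-ratio rescaling.

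**Figure D1:**
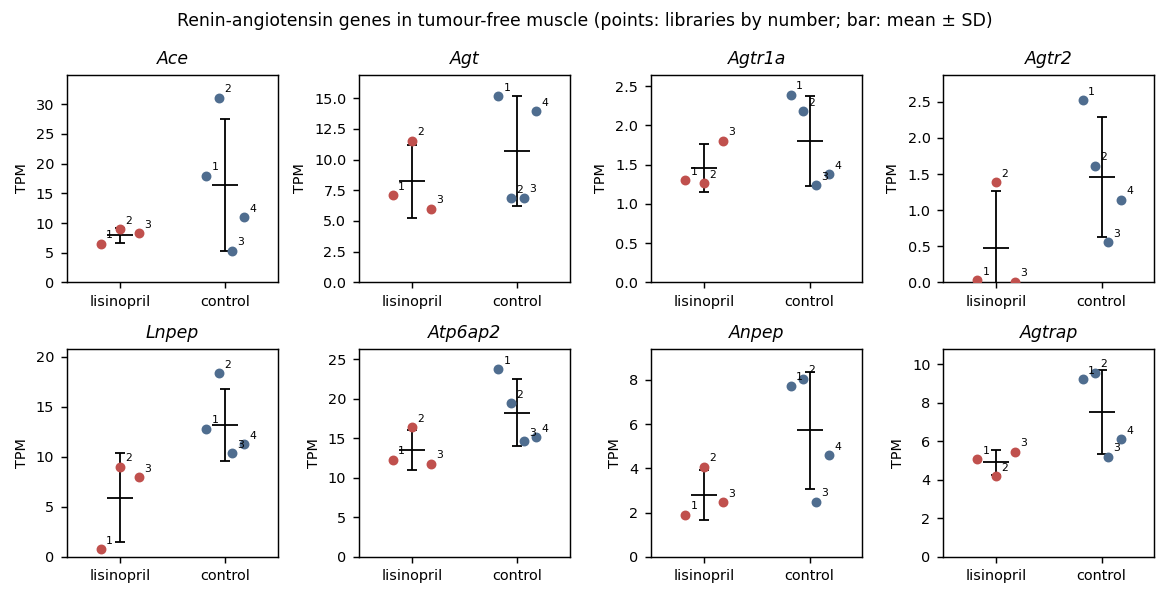
TPM of renin-angiotensin genes in each library, lisinopril left of control in each panel, with points for libraries and group means with SD. The groups overlap for Ace, Agt, Agtr1a and Agtr2, and every lisinopril library lies below every control for Lnpep.

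Outside that system, the genes below were picked by a ranking on unadjusted p among those whose groups did not overlap and whose higher mean was at least 5 TPM (234 lower and 16 higher), so separation was a condition of choice and none is a call. Cpne2, a copine that binds membranes when calcium rises (chromosome 8, 94532990 to 94570531), had 1.70, 3.65 and 2.03 TPM in lisinopril muscles, against 20.1, 13.8, 5.20 and 8.27 TPM in control muscles. The highest lisinopril muscle was below the lowest control, control 3, and the controls spread widely. Its log2 fold change was -1.78 ± 0.40 (95% interval -2.71 to -0.86, Benjamini-Hochberg adjusted p = 0.685), -1.66 ± 0.42 without control 2, and -1.62 ± 0.34 after median-ratio rescaling.

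Plin5, which coats lipid droplets in oxidative tissues and ties them to mitochondria (chromosome 17, 56111601 to 56117596), had narrow control values. Its levels were 11.3, 16.7 and 9.93 TPM in lisinopril muscles, against 21.4, 25.3, 20.4 and 20.5 TPM in control muscles, with the 4 controls within 20.4 to 25.3 TPM. Its log2 fold change was -0.77 ± 0.19 (95% interval -1.20 to -0.34, Benjamini-Hochberg adjusted p = 0.685), -0.70 ± 0.19 without control 2 and -0.59 ± 0.18 after median-ratio rescaling. Over fits leaving out 1 library it ranged over -0.97 (without lisinopril 2) to -0.62 (without lisinopril 3). Slc25a34, a carrier of the mitochondrial inner membrane family, had 17.5, 19.5 and 13.9 TPM in lisinopril muscles, against 24.6, 34.7, 23.01 and 27.0 TPM in control muscles (log2 fold change -0.65 ± 0.18). Pank1, the kinase that starts coenzyme A synthesis, had 6.52, 8.57 and 7.33 TPM in lisinopril muscles, against 11.5, 11.7, 11.6 and 9.31 TPM in control muscles. Control 4 was apart from the other controls. The log2 fold change of Pank1 was -0.51 ± 0.15, and -0.33 ± 0.16 after median-ratio rescaling.

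Ivns1abp, a kelch protein that binds actin, had 39.1, 51.8 and 45.2 TPM in lisinopril muscles, against 68.7, 60.6, 59.6 and 64.4 TPM in control muscles (log2 fold change -0.48 ± 0.13). Ppp1r12b, the targeting subunit of myosin phosphatase, had 37.1, 34.7 and 30.4 TPM in lisinopril muscles, against 45.0, 45.2, 40.6 and 49.7 TPM in control muscles (log2 fold change -0.40 ± 0.13). Both groups were narrow for these 2 abundant transcripts. After median-ratio rescaling the log2 fold change was smaller, -0.29 ± 0.15 for Ivns1abp and -0.21 ± 0.15 for Ppp1r12b. Myl10, a regulatory myosin light chain, had 1.70, 3.00 and 0.334 TPM in lisinopril muscles, against 5.55, 5.14, 7.35 and 3.07 TPM in control muscles, with lisinopril 2 just under control 4. Macf1, a crosslinker of microtubules and actin, had 4.96, 6.61 and 5.71 TPM in lisinopril muscles, against 12.6, 10.4, 7.63 and 7.79 TPM in control muscles (log2 fold change -0.63 ± 0.20). Synj2, an inositol phosphatase of membrane traffic, was lower by less (log2 fold change -0.45 ± 0.15, and -0.27 ± 0.13 after median-ratio rescaling). A pair of genes was lower in every lisinopril muscle but spread among controls. Eda2r, the receptor of ectodysplasin A2, had 2.99, 5.13 and 2.45 TPM in lisinopril muscles, against 19.8, 8.41, 5.92 and 7.00 TPM in control muscles (log2 fold change -1.22 ± 0.38). Rrad, a small GTPase that restrains calcium channels, had 4.83, 12.1 and 3.21 TPM in lisinopril muscles, against 87.0, 16.1, 16.7 and 17.0 TPM in control muscles, and control 1 was far above the other controls. Its log2 fold change was -1.94 ± 0.62, and it ranged over -2.41 (without lisinopril 2) to -1.36 (without control 1) when 1 library was left out.

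**Figure D2:**
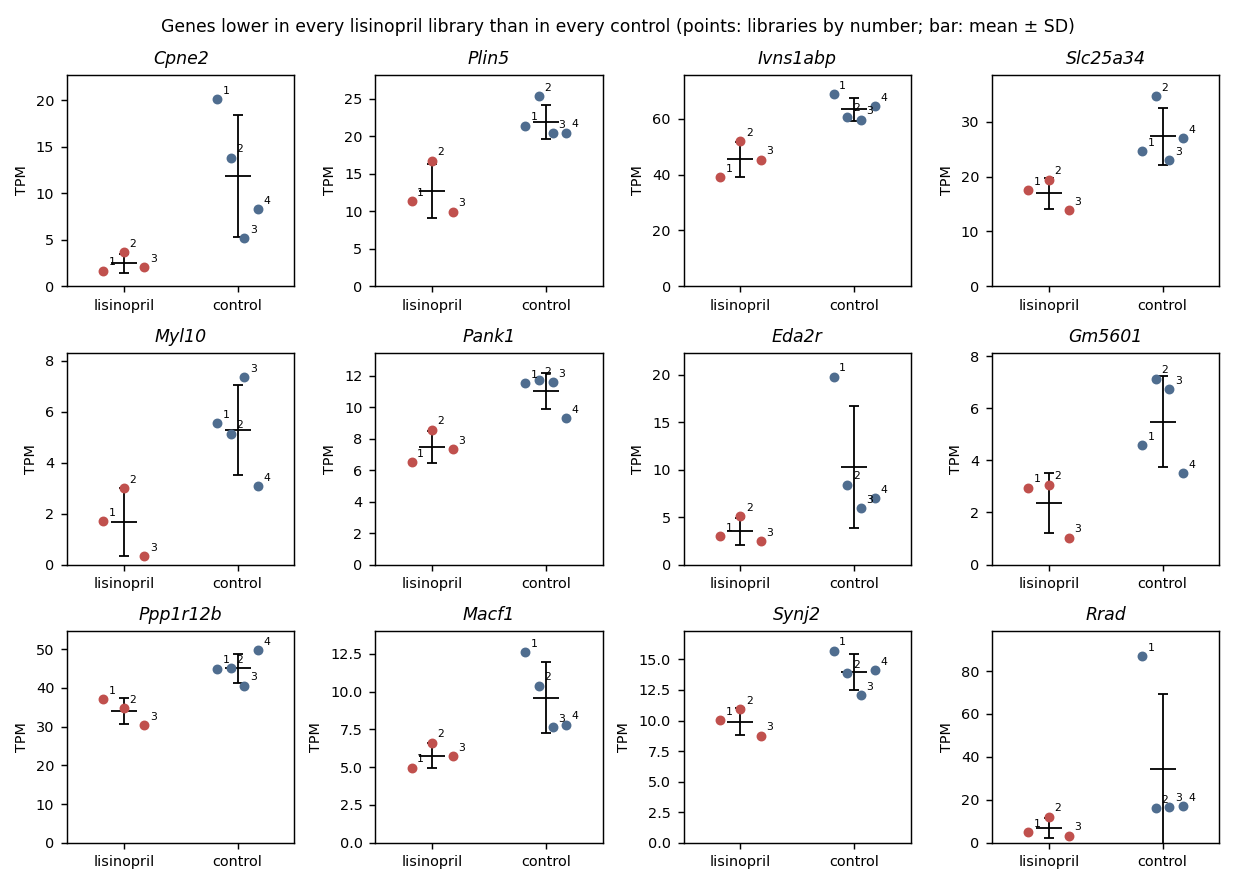
TPM per library of the genes that were lower with lisinopril by the ranking described in the text, lisinopril left of control, with group means and SD. No values overlap between groups, which was a condition of choice, and for Plin5 the controls lie at 20.4 to 25.3 TPM.

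Without rescaling, fewer genes were higher than lower in every lisinopril muscle, and most of those named here differed by smaller amounts. The imbalance depended on scaling, since after median-ratio rescaling 262 genes (2.34%) were wholly higher and 249 (2.22%) wholly lower. Pccb, a subunit of propionyl-CoA carboxylase, which feeds propionate from branched-chain amino acids and odd-chain fats into the citric acid cycle (chromosome 9, 100982032 to 101034898), had 40.0, 37.0 and 59.3 TPM in lisinopril muscles, against 19.1, 21.4, 36.9 and 21.7 TPM in control muscles. Lisinopril 2 and control 3 nearly touched, and the other controls were lower. Its log2 fold change was 0.87 ± 0.25 (95% interval 0.30 to 1.44, Benjamini-Hochberg adjusted p = 0.685), 0.82 ± 0.26 without control 2 and 1.05 ± 0.33 after median-ratio rescaling. Kazald1, a secreted Kazal-domain protein, had 7.38, 6.68 and 7.81 TPM in lisinopril muscles, against 2.95, 3.15, 3.61 and 6.64 TPM in control muscles, where control 4 came within reach of lisinopril 2 (log2 fold change 0.76 ± 0.24). Klhl31, a kelch protein of striated muscle, had 91.2, 73.9 and 86.3 TPM in lisinopril muscles, against 68.7, 60.7, 63.9 and 69.0 TPM in control muscles (log2 fold change 0.35 ± 0.12). Asb2, a substrate receptor of a muscle ubiquitin ligase, had 267, 252 and 318 TPM in lisinopril muscles, against 228, 244, 193 and 201 TPM in control muscles (log2 fold change 0.36 ± 0.13). These differences were small beside their level, and the lack of overlap was a condition of choice. Nhlrc1, the ubiquitin ligase malin of glycogen metabolism, had a log2 fold change of 0.43 ± 0.17. Txnip, which binds thioredoxin and limits glucose uptake, had 588, 604 and 706 TPM in lisinopril muscles, against 506, 455, 488 and 569 TPM in control muscles (log2 fold change 0.33 ± 0.12). Ifngr2, a chain of the interferon gamma receptor, had a log2 fold change of 0.35 ± 0.13. The remaining named genes were Gmpr (0.24 ± 0.11), Gng5 (0.18 ± 0.11) and Ndufa13 (0.16 ± 0.10). Without rescaling, only Pccb and Kazald1 of the higher genes described here differed by more than 0.44, the median half-width of an interval in that fit. After median-ratio rescaling the log2 fold changes of Nhlrc1 (0.59), Asb2 (0.56), Klhl31 (0.54), Ifngr2 (0.54) and Txnip (0.52) were also above 0.44. Those of Gmpr (0.435), Gng5 (0.37) and Ndufa13 (0.36) were not.

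Among lists with at least 3 tested members, the slow fibre list had the lowest median. Of 15 genes of slow and oxidative fibres 14 were tested, the slow myosin Myh7 being below the filter at no more than 1.47 TPM, and 0 passed the adjusted threshold. All 14 fold changes were negative, 6 had an unadjusted p below 0.05 (42.9%, beside 2.18% of all genes), and 3 did not overlap (21.4%, beside 3.94%). The median relative to all genes was -0.86, -0.90 without control 2 and -0.89 after median-ratio rescaling. The members share fibres, so they do not vary independently. Fewer slow fibres and less of these transcripts per fibre cannot be told apart in bulk muscle, which holds for every cell type below.

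Tnnt1, slow troponin T (chromosome 7, 4504570 to 4516382), had 1.54, 11.8 and 1.57 TPM in lisinopril muscles, against 32.9, 13.7, 11.7 and 11.1 TPM in control muscles. Lisinopril 1 and lisinopril 3 were far below the controls and lisinopril 2 was among them (log2 fold change -1.93 ± 0.60, 95% interval -3.30 to -0.55, Benjamini-Hochberg adjusted p = 0.685). The other slow troponins, Tnni1 and Tnnc1, named here after their values were seen, likewise had lisinopril 1 and lisinopril 3 below every control. Tnni1 had 0.890, 18.6 and 0.469 TPM in lisinopril muscles, against 28.8, 15.3, 8.86 and 9.58 TPM in control muscles. Tnnc1 had 1.32, 9.90 and 0.309 TPM in lisinopril muscles, against 16.8, 9.45, 6.67 and 5.99 TPM in control muscles. In both, lisinopril 2 was above 3 of the controls. Myl3, a slow myosin light chain, had 10.6, 9.55 and 1.96 TPM in lisinopril muscles, against 35.5, 12.1, 26.6 and 10.7 TPM in control muscles (log2 fold change -1.47 ± 0.56), and its groups did not overlap. Atp2a2, the calcium pump of slow fibres and heart, had 6.89, 16.3 and 7.61 TPM in lisinopril muscles, against 44.0, 29.4, 13.1 and 14.3 TPM in control muscles (log2 fold change -1.14 ± 0.45), overlapping through lisinopril 2. Myh7b, a slow myosin relative, was near 1 TPM (log2 fold change -0.59 ± 0.20). Myoglobin, Mb, a very abundant transcript, had 7386, 8543 and 6542 TPM in lisinopril muscles, against 7891, 6692, 10832 and 6726 TPM in control muscles, with overlapping groups (log2 fold change -0.08 ± 0.20).

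The slow pattern rested on few animals. The 6 members with an unadjusted p below 0.05 became 0 without lisinopril 3 (beside 1.45% of all genes) and 1 without control 1 (8.33%, beside 0.71%). They became 2 without lisinopril 1 (14.3%, beside 0.58%), 3 without control 3 (25%, beside 17.8%) and 4 without control 2 (33.3%, beside 1.94%). There were 8 without control 4 (57.1%, beside 2.33%) and 9 without lisinopril 2 (64.3%, beside 3.47%). Without control 1, control 2 or control 3, 12 members were tested in place of 14. The relative median stayed between -0.54 and -1.28 over the fits leaving out 1 library. The mean level of the list, in log2(TPM + 1), was 4.20, 5.23 and 3.46 in lisinopril 1, 2 and 3, against 6.02, 5.22, 5.27 and 4.84 in control 1 to 4. Lisinopril 2 thus lay at the level of control 2 and control 3.

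Genes of fast fibres had mostly positive fold changes. Of 15 tested, 13 fold changes were positive, beside 15.4% of all genes, and 3 had an unadjusted p below 0.05 in the higher direction, beside 0.205% of all genes. Of the 15, 0 passed and 0 were separated. The count of 3 became 0 without control 3, without lisinopril 1 and without lisinopril 3. It was 1 without control 1 (6.67%, beside 0.146% of all genes) and 2 without control 2 (13.3%, beside 0.273%). It was 4 without lisinopril 2 (26.7%, beside 0.397%) and 5 without control 4. Without control 4 the 5 (33.3%) stood beside 0.982% of all genes, and 6 members (40%) were wholly above the controls, beside 2.1%. The median relative to all genes was 0.44, 0.36 without control 2 and 0.47 after median-ratio rescaling, but 0.071 after quantile normalization. Pvalb, parvalbumin, the calcium buffer of fast fibres, had 13242, 10379 and 14622 TPM in lisinopril muscles, against 5614, 6739.7, 6293 and 12137 TPM in control muscles (log2 fold change 0.78 ± 0.27, 95% interval 0.17 to 1.40). Control 4 was the one control inside the lisinopril range, and likewise for Mybpc2, fast myosin-binding protein C, which had 2556, 1770.3 and 3091 TPM in lisinopril muscles, against 1056, 1353, 998 and 2454 TPM in control muscles (log2 fold change 0.82 ± 0.32). Of the adult myosins, the fastest, Myh4, had 10636, 6017 and 13249.9 TPM in lisinopril muscles, against 6480.4, 7195, 4077 and 10282 TPM in control muscles (log2 fold change 0.51 ± 0.35). Myh2, of the fast oxidative fibres, had 366, 486 and 103 TPM in lisinopril muscles, against 580.3, 352, 568 and 372 TPM in control muscles (log2 fold change -0.79 ± 0.48), and lisinopril 3 was the lowest of all. Myh1, of intermediate fibres, had 4256, 4239.9 and 4398 TPM in lisinopril muscles, against 6397, 5290.1, 5308 and 4099.9 TPM in control muscles (log2 fold change -0.28 ± 0.16).

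**Figure D3:**
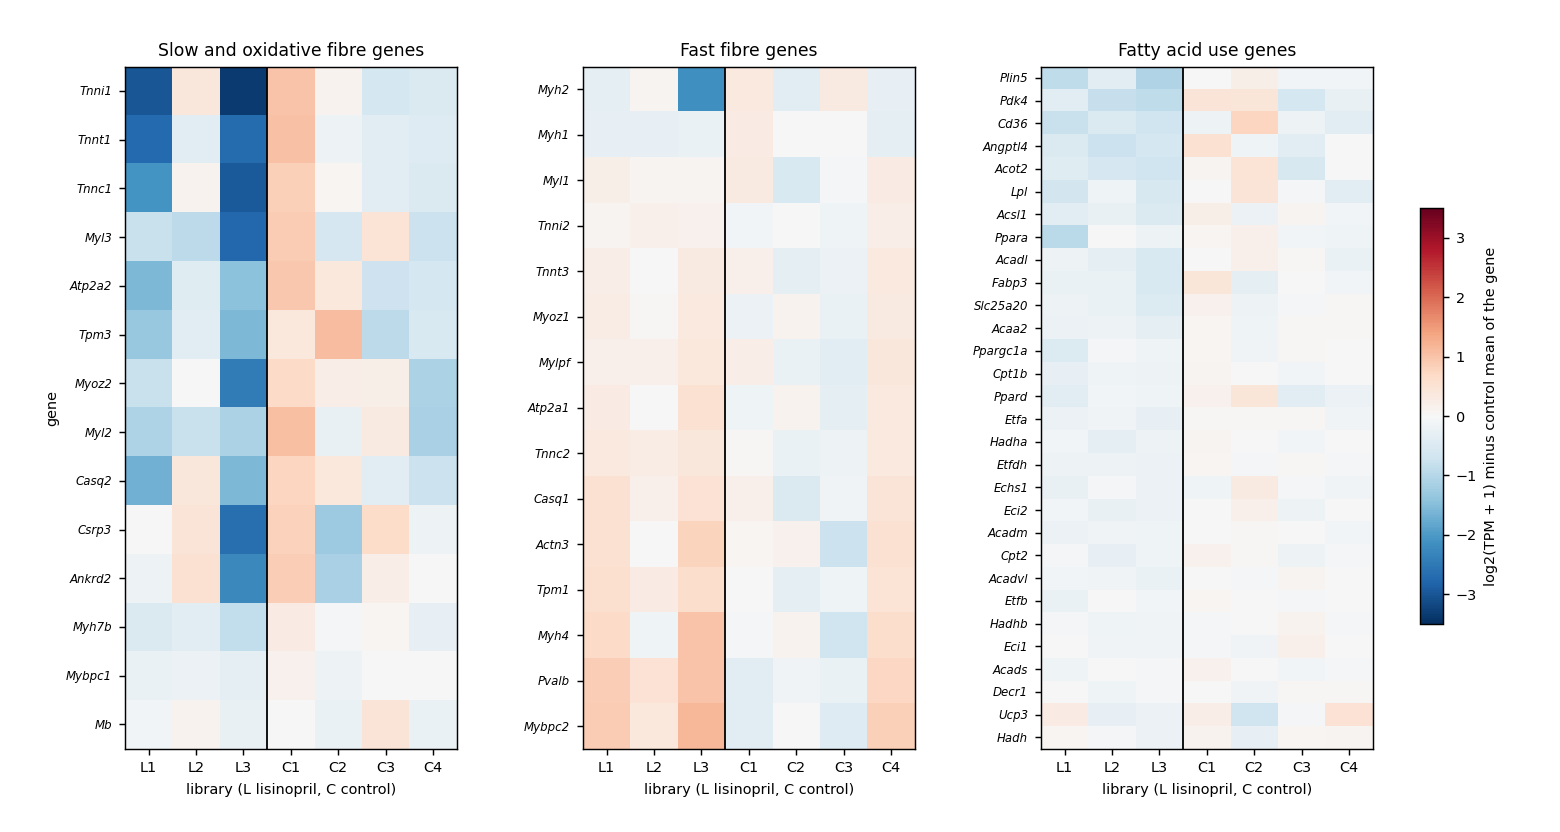
Each row is a tested gene of the slow and oxidative, fast, or fatty acid use list, and each column a library (L lisinopril, C control); colour is log2(TPM + 1) minus the gene's control mean. Lisinopril 1 and 3 are lowest for Tnni1, Tnnt1 and Tnnc1, whereas most fatty acid genes are lower in the 3 lisinopril libraries by smaller amounts.

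Genes of fatty acid uptake and oxidation had negative fold changes of -0.77 to -0.050. Of 32 listed, 30 were tested and 0 passed. All 30 fold changes were negative, 7 had an unadjusted p below 0.05 (23.3%, beside 2.18% of all genes), and 10 had every lisinopril value below every control (33.3%, beside 3.94%). The 7 became 1 without lisinopril 3 (3.33%, beside 1.45% of all genes) and 3 without control 1 (10%, beside 0.71%). They became 4 without lisinopril 1 or lisinopril 2 (13.3%, beside 0.58% and 3.47%). They stayed 7 without control 2, control 3 or control 4 (23.3%, beside 1.94%, 17.8% and 2.33%). Without control 2 there were 14 separated genes of 30 (46.7%, beside 5.43%), and with the mitochondrial genome taken out 4 (13.3%, beside 9.91%). The list's median, however, was -0.21, close to that of all genes (relative median -0.027, and -0.11 without control 2). After median-ratio rescaling 16 were negative, 3 had an unadjusted p below 0.05 and 2 were separated (6.67%, beside 2.22% of all genes).

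Several members with a small p act in uptake, activation or storage of lipid. Besides Plin5, Cd36, the fatty acid transporter of the cell surface, had 127, 155 and 136 TPM in lisinopril muscles, against 196, 373, 192 and 166 TPM in control muscles (log2 fold change -0.66 ± 0.26, 95% interval -1.24 to -0.07; -0.40 ± 0.13 without control 2). Acsl1, which activates long-chain fatty acids, had 63.0, 69.8 and 58.9 TPM in lisinopril muscles, against 95.9, 73.0, 90.2 and 78.0 TPM in control muscles (log2 fold change -0.39 ± 0.13). Angptl4, a secreted inhibitor of lipoprotein lipase, had 1.22, 0.845 and 1.03 TPM in lisinopril muscles, against 3.52, 1.84, 1.39 and 2.12 TPM in control muscles (log2 fold change -0.63 ± 0.23). These 3 were separated between groups, Acsl1 and Angptl4 by narrow gaps. Pdk4, the kinase that shuts off pyruvate oxidation when fat is burnt and a member of the same list, had 393, 294 and 279 TPM in lisinopril muscles, against 709, 699, 334 and 431 TPM in control muscles (log2 fold change -0.70 ± 0.28) and overlapped through control 3. The 6 other separated members, named after their values were seen, were Cpt1b (-0.21 ± 0.10), the gate of mitochondrial fatty acid entry in muscle, the dehydrogenases Acadm (-0.16 ± 0.10) and Acadvl (-0.15 ± 0.10), the thiolase Acaa2 (-0.23 ± 0.11), and the electron carriers Etfa (-0.21 ± 0.10) and Etfdh (-0.19 ± 0.11), in log2 units. For Cpt1b the values were 169, 187 and 184 TPM in lisinopril muscles, against 224, 207, 196 and 208 TPM in control muscles, which is typical of these enzymes.

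The promoters of Plin5 and Acadvl are shown as examples. Both genes were separated and both windows hold AGGTCA, the half-site bound by nuclear receptors such as the PPARs, which drive fatty acid genes. Cd36 meets the same conditions, with 1 match starting 228 bases before the start site, and is not shown. Sequences run 250 bases before to 50 after the start site, from RefSeq on GRCm38.p6, read 5′ to 3′ on the strand of the gene, with the motif in capitals. Plin5 lies at chr17:56117499-56117798 and Acadvl at chr11:70015379-70015678, both on the minus strand.
Plin5: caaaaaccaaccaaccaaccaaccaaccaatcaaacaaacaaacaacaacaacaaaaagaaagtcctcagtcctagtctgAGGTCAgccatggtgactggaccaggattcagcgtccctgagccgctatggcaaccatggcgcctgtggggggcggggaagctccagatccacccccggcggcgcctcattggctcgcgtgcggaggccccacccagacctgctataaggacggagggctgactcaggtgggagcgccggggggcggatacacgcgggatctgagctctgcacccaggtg
Acadvl: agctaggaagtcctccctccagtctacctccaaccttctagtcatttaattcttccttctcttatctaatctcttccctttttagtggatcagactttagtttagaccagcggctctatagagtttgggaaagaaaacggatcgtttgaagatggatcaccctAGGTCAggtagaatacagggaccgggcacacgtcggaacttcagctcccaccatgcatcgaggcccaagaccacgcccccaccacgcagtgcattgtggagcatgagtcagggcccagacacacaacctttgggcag
A match on either strand was found in 6 of the 25 list members with a promoter in the table (24.0%), beside 14.99% of tested genes and 18.1% of all 27025 symbols with one. Each of these 2 windows holds 1 match, starting 170 bases before the start site in Plin5 and 87 before it in Acadvl. A second start site is listed for Plin5, with its window at chr17:56117249-56117548, not shown. There the 1 match starts 13 bases after that start site. A match is a description of the letters and not of binding.

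Genes of glycolysis and glycogen had mostly positive fold changes. Those of insulin signalling and glucose uptake were mostly negative, with 16 of 21 tested (beside 84.6% of all genes), 0 passing and a relative median of -0.15. Of 20 tested genes of glycolysis and glycogen, 15 were positive (beside 15.4% of all genes) and 0 passed (relative median 0.44, 0.22 without control 2, 0.14 after quantile normalization). At an unadjusted p below 0.05 there was 1, higher (5%, beside 0.205% of all genes). The count stayed 1 without lisinopril 2 (5%, beside 0.397%). It was 0 without control 1, control 2, control 3, lisinopril 1 or lisinopril 3. Without control 4 there were 8 higher (40%, beside 0.982%), with 11 of the 20 wholly above the controls (55%, beside 2.1%). Without control 2, 1 member was lower at that p (5%, beside 1.94%) and 1 was wholly below the controls (5%, beside 5.43%). Phkg1, the catalytic subunit of muscle phosphorylase kinase, had 302, 252 and 337 TPM in lisinopril muscles, against 191, 179, 205 and 300.0 TPM in control muscles (log2 fold change 0.46 ± 0.19, 95% interval 0.02 to 0.90). The nuclear genes of oxidative phosphorylation (27 tested, 22 positive) and those of the citric acid cycle (19 tested, 9 positive) had relative medians of 0.21 and 0.18, or 0.074 and 0.054 without control 2, and 0 of either passed. Without control 2 the sign counts turned, with 19 of the 27 and 13 of the 19 negative (beside 79.3% of all genes). The regulator Ppargc1a, a coactivator of mitochondrial genes, had 10.4, 14.2 and 13.4 TPM in lisinopril muscles, against 15.8, 13.5, 15.4 and 14.98 TPM in control muscles (log2 fold change -0.23 ± 0.15).

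No gene of the collagens and the matrix, which angiotensin II is known to raise in fibrosis, passed the test. All 21 tested genes of collagens and their crosslinking were negative, yet 0 passed, 0 had an unadjusted p below 0.05 and 0 were separated. The relative median was -0.59, -0.26 without control 1, -0.26 without lisinopril 1 and -0.65 without control 2. Without lisinopril 2 it was -0.91, with 10 of the 21 at an unadjusted p below 0.05 (47.6%, beside 3.47% of all genes) and 14 separated (66.7%, beside 13.1%). Without control 3 there were 5 at that p (23.8%, beside 17.8% of all genes) and 1 separated (4.76%, beside 33.8%). Without control 4 there were 3 at that p (14.3%, beside 2.33%) and 0 separated (beside 5.31%). Col1a1, a chain of type I collagen (chromosome 11, 94936224 to 94953042), had 11.7, 69.4 and 26.9 TPM in lisinopril muscles, against 194, 47.5, 35.5 and 43.7 TPM in control muscles. Control 1 was far above the rest, and lisinopril 2 exceeded the other 3 controls (log2 fold change -1.10 ± 0.69, 95% interval -2.67 to 0.47). Col3a1, of type III collagen, had 28.5, 159.7 and 53.2 TPM in lisinopril muscles, against 328, 97.8, 72.6 and 104 TPM in control muscles, again with control 1 highest and lisinopril 2 above the other 3 controls. Col4a1, of basement membranes, had 33.3, 51.1 and 36.1 TPM in lisinopril muscles, against 107, 125, 42.3 and 43.6 TPM in control muscles (log2 fold change -0.82 ± 0.40), high in control 1 and control 2. For the 25 matrix glycoproteins the relative median was -0.39 and for the 15 genes of TGF-beta signalling -0.29 (-0.42 and -0.084 without control 2), with 0 called. Tgfb1, the cytokine itself, had 2.76, 4.41 and 3.04 TPM in lisinopril muscles, against 10.9, 61.4, 2.95 and 3.74 TPM in control muscles, with control 2 high.

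Markers of macrophages had negative fold changes in all 16 tested of 17; 2 had an unadjusted p below 0.05 (12.5%, beside 2.18%) and 0 were separated or called (relative median -0.57, and -0.35 without control 2, where 0 of 14 had an unadjusted p below 0.05). Without lisinopril 2, 9 of 15 were separated (60%, beside 13.1%), and without control 3, 5 of 16 were (31.2%, beside 33.8%). Their summed level was 89.9, 245 and 91.7 TPM in lisinopril muscles, against 346, 607, 117 and 133 TPM in control muscles, and that of fibroblast markers 424, 908 and 810.0 TPM in lisinopril muscles, against 1440.2, 1447, 585 and 928 TPM in control muscles. Cd68, a lysosomal glycoprotein of macrophages, had 1.93, 5.78 and 3.35 TPM in lisinopril muscles, against 18.1, 15.2, 4.34 and 5.81 TPM in control muscles (log2 fold change -1.22 ± 0.49). Lyve1, of resident macrophages and lymphatic vessels, had 0.557, 0.948 and 1.17 TPM in lisinopril muscles, against 2.56, 2.58, 0.949 and 1.51 TPM in control muscles (log2 fold change -0.58 ± 0.26). The part of these cell types in the collagen and matrix values was not tested. Endothelial markers, a list that holds Ace, were at the median of all genes (15 tested, relative median -0.058, and 0.020 without control 2).

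Genes that muscle raises when it develops, regenerates or loses its nerve had negative fold changes without passing. All 14 tested of 18 were negative (beside 84.6% of all genes) and 1 had an unadjusted p below 0.05 (7.14%, beside 2.18%). The relative median was -0.57, and -0.24 without control 1 or lisinopril 3. Without lisinopril 2 it was -0.94, with 5 at that p (35.7%, beside 3.47%) and 9 separated (64.3%, beside 13.1%). Without control 3, 5 were separated (35.7%, beside 33.8%). Musk, the kinase that organises the neuromuscular junction, had 0.572, 2.02 and 1.15 TPM in lisinopril muscles, against 5.81, 2.08, 1.51 and 3.73 TPM in control muscles (log2 fold change -0.87 ± 0.37). Chrna1, a subunit of the acetylcholine receptor, had 7.57, 10.02 and 4.18 TPM in lisinopril muscles, against 58.5, 8.39, 9.87 and 18.9 TPM in control muscles (log2 fold change -1.24 ± 0.60), with control 1 highest. Embryonic myosin, Myh3, had 0.769, 20.2 and 1.23 TPM in lisinopril muscles, against 37.0, 16.4, 10.4 and 7.05 TPM in control muscles (log2 fold change -1.84 ± 0.86), with lisinopril 1 and lisinopril 3 below every control. The ubiquitin ligases of atrophy, Trim63 (-0.31 ± 0.25) and Fbxo32 (-0.45 ± 0.32), overlapped between groups, and 0 of 28 atrophy genes passed (relative median -0.10, and -0.028 without control 2).

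**Figure D4:**
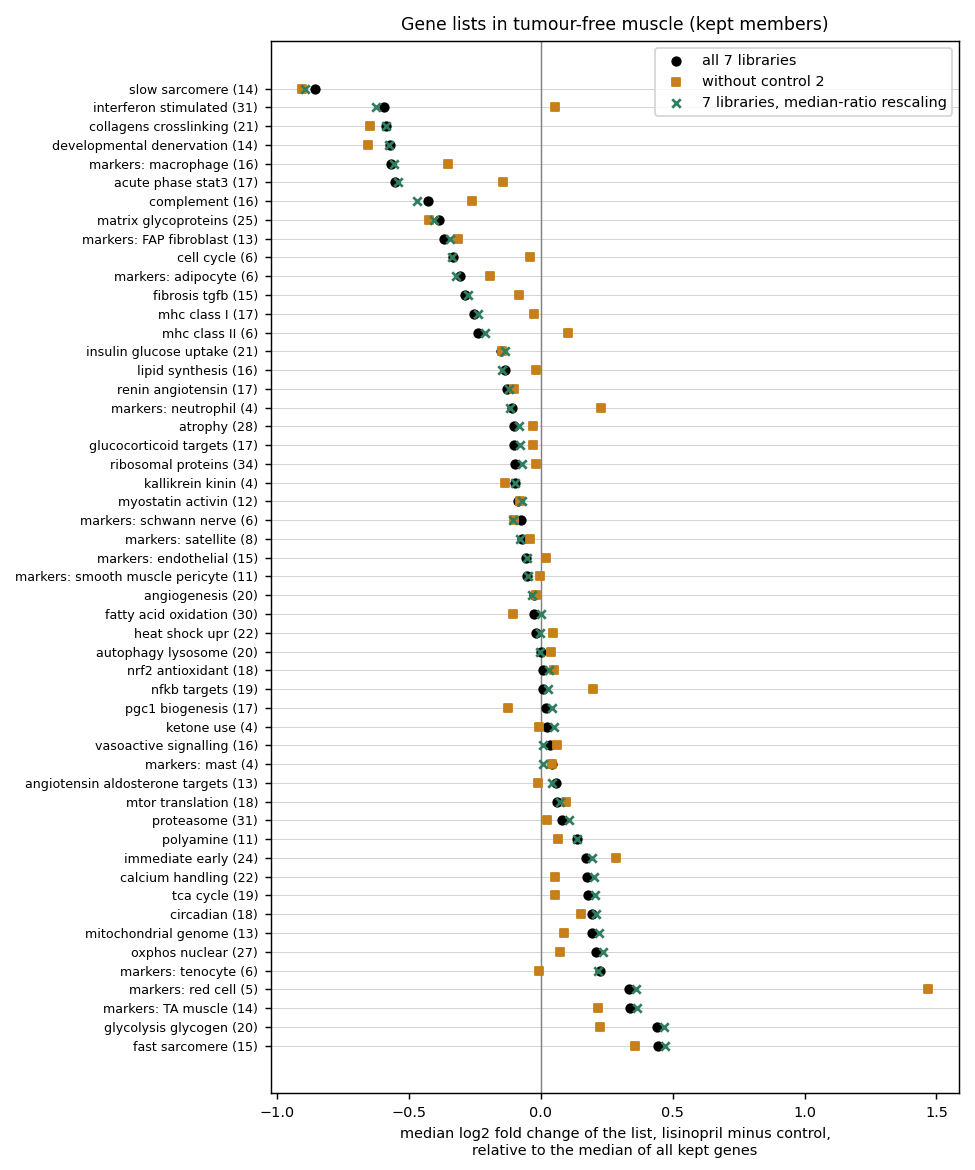
Median log2 fold change (lisinopril minus control) of each gene list minus the median of all tested genes, with the number of tested members in brackets. Circles are all 7 libraries, squares the fit without control 2 and crosses median-ratio rescaling; slow sarcomere stays near -0.9 in all 3, whereas the interferon list moves to 0.054 without control 2.

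The median of the interferon-stimulated genes was below that of all genes with control 2 in the comparison and not without it. Of 44 listed, 31 were tested, all were negative, 0 passed and 1 was separated (3.23%, beside 3.94% of all genes). The relative median was -0.60 with control 2 and 0.054 without it. The mean level of the list, in log2(TPM + 1), was 2.19, 1.94 and 1.96 in lisinopril 1 to 3, against 2.15, 4.98, 1.86 and 2.19 in control 1 to 4. Ifit3, an antiviral effector induced by interferon, had 6.28, 2.94 and 3.59 TPM in lisinopril muscles, against 2.23, 75.7, 1.58 and 4.05 TPM in control muscles, and its log2 fold change was -0.57 ± 1.05 with control 2 and 0.55 ± 0.30 without it. T and natural killer cell markers moved with control 2 as well: their summed level was 4.50, 5.47 and 1.89 TPM in lisinopril muscles, against 4.45, 100.1, 3.93 and 2.56 TPM in control muscles. Eif2ak2, the double-stranded RNA-activated kinase PKR, was the separated member with and without control 2. It had 1.57, 2.14 and 2.14 TPM in lisinopril muscles, against 3.78, 13.7, 2.70 and 3.35 TPM in control muscles (log2 fold change -0.98 ± 0.44, and -0.53 ± 0.17 without control 2, 95% interval -0.92 to -0.15).

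The promoters of Eif2ak2 and Ifit3 are shown as the separated member and as one that followed control 2. The pattern GAAA, any 2 bases, GAAA, the core of the interferon-stimulated response element, was searched on both strands and is in capitals. Eif2ak2 lies at chr17:78882523-78882822 on the minus strand and Ifit3 at chr19:34583279-34583578 on the plus strand, from RefSeq on GRCm38.p6.
Eif2ak2: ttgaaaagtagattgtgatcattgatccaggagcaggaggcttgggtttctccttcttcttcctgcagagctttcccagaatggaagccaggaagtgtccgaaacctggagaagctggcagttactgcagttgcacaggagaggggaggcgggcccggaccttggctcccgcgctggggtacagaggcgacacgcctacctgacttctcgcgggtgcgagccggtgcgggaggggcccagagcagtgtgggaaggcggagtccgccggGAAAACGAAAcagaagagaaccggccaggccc
Ifit3: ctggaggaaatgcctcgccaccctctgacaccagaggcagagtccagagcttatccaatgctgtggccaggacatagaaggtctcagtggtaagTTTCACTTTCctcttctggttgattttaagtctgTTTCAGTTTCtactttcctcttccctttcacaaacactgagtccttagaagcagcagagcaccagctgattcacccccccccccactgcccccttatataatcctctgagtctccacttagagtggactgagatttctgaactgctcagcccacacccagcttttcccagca
Eif2ak2 holds 1 match, which starts 18 bases after the start site, and Ifit3 holds 2. The pattern was found in 17 of 24 list members with a promoter (70.8%), beside 3.51% of tested genes and 3.99% of all symbols.

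Whether lisinopril acted differently in tumour-bearing muscle was tested as an interaction over the 15 libraries. With limma and Benjamini-Hochberg adjustment 0 of 11923 genes passed (smallest adjusted p 1.00), and 151 had an unadjusted p below 0.05 (1.27%). Melanoma plus lisinopril against melanoma gave 0 calls as well, with 65.6% of fold changes negative and 34.4% positive. The values of the ranked genes are given side by side from this fit, without and with the tumour, and since the genes were chosen in the first of these, a smaller second value has no weight by itself. For Plin5 the drug's log2 fold change was -0.77 ± 0.19 in tumour-free and 0.17 ± 0.18 in tumour-bearing muscle (difference, tumour-bearing minus tumour-free, 0.94 ± 0.26). For Cpne2 it was -1.78 ± 0.34 and -0.37 ± 0.31 (difference 1.42 ± 0.46). Pccb was higher with the drug in both, at 0.87 ± 0.26 and 0.66 ± 0.24 (difference -0.21 ± 0.35). For Ace the values were -0.73 ± 0.44 and -0.37 ± 0.41. Medians of whole lists, not taken relative to all genes, also differed in sign. The slow fibre list had a median log2 fold change of -1.04 in tumour-free muscle (14 members) and 0.24 in tumour-bearing muscle (15 members). For the fatty acid list these were -0.21 (30 members) and 0.17 (31 members). The medians of all genes were -0.18 and -0.061. Both lists were singled out by their tumour-free values, so a different second value has no weight by itself. Whether these list medians differ between the arms was not tested.

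**Figure D5:**
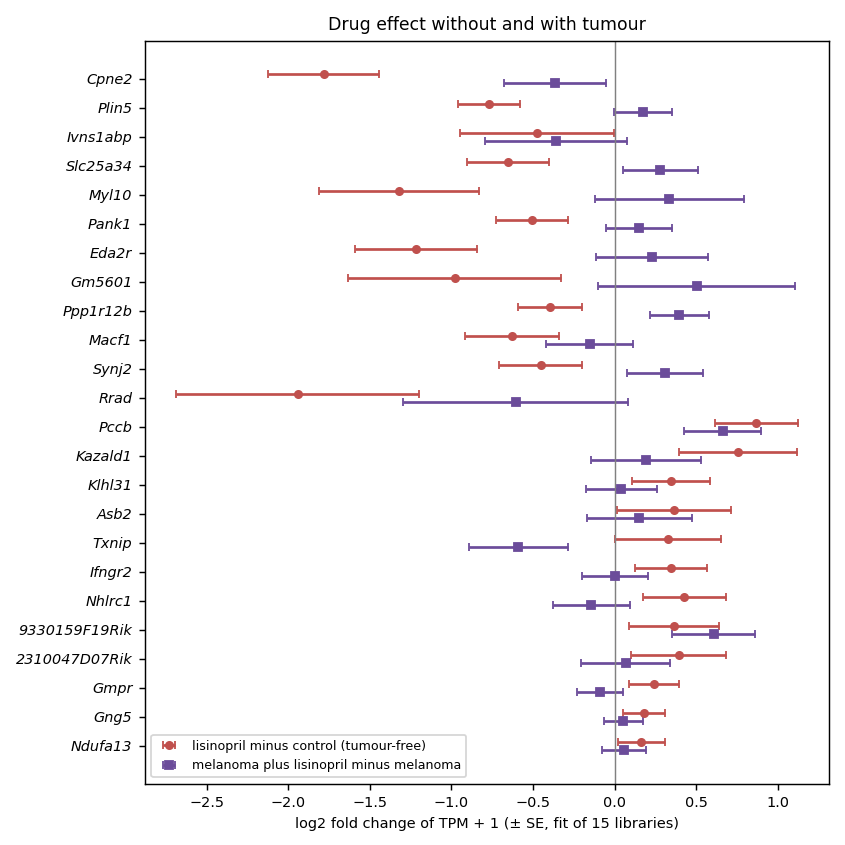
Log2 fold change (± SE, limma fit of 15 libraries) of lisinopril against control in tumour-free muscle and of melanoma plus lisinopril against melanoma, for the genes ranked in tumour-free muscle. Plin5 lies at -0.77 without and 0.17 with the tumour, and Pccb is positive in both.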

How the data were processed

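RNA of tibialis anterior was extracted with Trizol, and stranded mRNA libraries (TruSeq) were sequenced on an Illumina NovaSeq instrument, per the labels' protocols. The authors deposited TPM per gene symbol, and per the submitters' processing notes the build was mm10. How reads were aligned, counted, annotated and shared between related genes is not given in the sources used here. TPM keep no depth, so neither counting intervals nor detection limits are reported, and a value is a share of its library, which moves when a few abundant transcripts do. Between 10530 and 12363 genes reached 1 TPM per library.

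Libraries were grouped by the treatment label (3 lisinopril, 4 control). Symbols reaching 1 TPM in 3 or more of these were kept. Their log2(TPM + 1) values went into limma 3.58.1 under R 4.3.3 (eBayes with trend, 5 residual and 3.49 prior degrees of freedom). Tests were two-sided, adjusted by Benjamini-Hochberg over all kept genes, with a threshold of 0.05. Errors of fold changes are SE and those of TPM are SD. Fold changes on this scale understate the change of low genes. The same fit was made without control 2, and the interaction with tumour status was fitted over 15 libraries. Gene lists were described by counts and medians, with no set test. The fit was tested on simulated data.

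The members, gene lists and tests were chosen with earlier results of these data known. Where fewer than 12 genes in a direction passed, the named genes were those with the smallest unadjusted p among separated genes whose higher group averaged 5 TPM or more. A panel of 32 genes and up to 4 members per list with the smallest p were added, and the text names part of these; a few listed genes are not reported here. Alternatives were other pseudocounts, filters, scalings, weights, a replicate block and leaving out libraries. Positions came from the GENCODE annotation of GRCm38, and promoters from RefSeq on GRCm38.p6. Figures used Python 3.11.15 with pandas 2.3.3, numpy 2.4.6 and matplotlib 3.10.9.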

Additional observations from a re-analysis of the deposited data

Results flagged for a closer look

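Among the 4 control libraries, 111 values (named genes, list levels and the mitochondrial share) were examined for a library far from the others, and 12 were marked by Dixon's criterion at its 95% level. Chance marks about 1 in 20 groups, and the values are not independent. Control 2 accounted for 3, all high: Igkc, the immunoglobulin kappa constant region, at 80.1 TPM against 3.32 to 4.08 TPM in the other controls; the interferon list at a mean level of 4.98 against 1.86 to 2.19; and the single tested T and natural killer cell marker, Gzma, at 5.48 against 0.917 to 1.58, levels being in log2(TPM + 1). Lisinopril 1 also held Igkc, at 61.2 TPM.

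Control 1 was high for Rrad (87.0 TPM against 16.1 to 17.0), Col1a1 (194 TPM against 35.5 to 47.5) and the tenocyte markers (level 3.43 against 2.22 to 2.33). Control 3 was high in the mitochondrial share (52.8% against 40.8 to 41.9%) and low in the proteasome list (level 6.22 against 6.58 to 6.61) and the myostatin and activin list (3.35 against 3.74 to 3.82). Control 4 was low for Pank1 (9.31 TPM against 11.5 to 11.7), for Ighm, the immunoglobulin mu heavy chain (35.3 TPM against 70.5 to 74.9), and for the ketone use list (level 5.20 against 5.69 to 5.78). Groups of 3, such as lisinopril, were not examined this way.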

How the results depend on the processing

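Lisinopril against control gave 0 calls under another pseudocount, no filter, a filter at a mean of 5 TPM, both rescalings, TPM without the mitochondrial genome, eBayes without trend, quality weights, the fit of all 15 libraries, and the fit without control 2 with median-ratio rescaling. Leaving out 1 library at a time gave 0 calls in each of the 3 comparisons (range 0 to 0), while genes at an unadjusted p below 0.05 for lisinopril against control ranged from 78 (without lisinopril 1) to 2004 (without control 3). The replicate block, with the number in the labels as a block, gave 240 calls (26 higher, 214 lower) and, without control 2, 133 (26 higher, 107 lower), but 0 for the interaction. It leaves 2 residual degrees of freedom in the first of these. Whether the numbers mark pairs, such as a shared cage or day, is not given in the labels. Correlations of same-numbered deviations were -0.14, 0.081 and 0.13, and 0 of 3 lisinopril libraries correlated best with its own number. So few libraries can neither establish nor exclude pairing. The difference in mitochondrial share ranged from -0.53 to 3.47 percentage points when 1 library was left out. Of 911 values of 51 ranked and panel genes under the alternatives, 869 kept their sign without passing, 29 changed sign without passing, 13, all under the block, passed, and 0 were called with the opposite sign. Precision is limited by 3 against 4 animals and by TPM, which give no depth.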

Other observations

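Of 22 tested genes of calcium handling 0 were called, with 1 higher (4.55%, beside 0.205% of all genes) and 2 lower (9.09%, beside 2.18%) at an unadjusted p below 0.05. Sln, sarcolipin, an inhibitor of the sarcoplasmic calcium pump, had 2.89, 34.1 and 1.01 TPM in lisinopril muscles, against 114, 90.4, 22.5 and 12.3 TPM in control muscles (log2 fold change -2.71 ± 1.06, 95% interval -5.13 to -0.29), with lisinopril 1 and lisinopril 3 below every control and lisinopril 2 among them. Mrln, myoregulin, another inhibitor of that pump, had 34.99, 31.2 and 40.1 TPM in lisinopril muscles, against 20.2, 23.4, 25.03 and 31.3 TPM in control muscles (log2 fold change 0.50 ± 0.17, 95% interval 0.11 to 0.88), and overlapped through control 4. Of the myostatin and activin genes, 12 were tested and 0 called. Myostatin, Mstn, which limits muscle growth, had 33.5, 34.4 and 33.6 TPM in lisinopril muscles, against 14.1, 37.2, 12.9 and 51.6 TPM in control muscles, with lisinopril values within 1 TPM of each other and controls spread on both sides. Fst, follistatin, which binds and blocks myostatin and activin, had 0.733, 1.84 and 1.10 TPM in lisinopril muscles, against 3.91, 2.19, 2.21 and 1.86 TPM in control muscles (log2 fold change -0.67 ± 0.25, 95% interval -1.24 to -0.10) and was separated between groups.

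The 5 tested red cell markers, haemoglobin transcripts among them, all had positive fold changes (beside 15.4% of all genes), with 0 passing. Their median was 0.15, and 1.36 once control 2 was left out. The signs turned without control 1, with all 5 negative (beside 79.8% of all genes) and a median of -0.57. Without control 3, 4 were negative (beside 89.1%). Hba-a1, an alpha chain, had 729, 797 and 1855 TPM in lisinopril muscles, against 219, 11663, 521 and 544 TPM in control muscles, so that control 2 was highest and the other controls were below every lisinopril muscle. Its log2 fold change was 0.15 ± 1.18, and 1.37 ± 0.43 without control 2, where all 5 tested red cell markers were positive (beside 20.7% of all genes) and 3 were separated (60%, beside 0.482%). Close copies share reads among these genes, and the amount of blood in the samples was not tested. Cdkn1a, the cell cycle inhibitor p21, had 20.3, 38.9 and 19.9 TPM in lisinopril muscles, against 80.8, 52.4, 34.5 and 37.8 TPM in control muscles (log2 fold change -0.93 ± 0.33), and 0 of 18 circadian clock genes had an unadjusted p below 0.05.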
